A study of Mus musculus with 2 samples.

Results

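The genes described here are 36 members of the fibroblast growth factor (Fgf) pathway, of 43346 annotated mouse genes measured. They were chosen by name and matched by Ensembl identifier: 16 genes of secreted ligands, 4 genes of intracellular Fgf homologous factors, and 16 genes of feedback regulators and modulators of the signal. Total RNA came from the embryonic facial prominence of strain B6NCrl mice at embryonic day 14.5, with no mutation or treatment named in the labels. There is 1 group of 2 libraries, biological replicates 1 and 2, each from 10.0 ng of RNA longer than 200 nt prepared with SMART-seq chemistry. The labels describe one cranioface from one pup for each library, collected on different days, but also give a mixed sex, so whether RNA of several embryos was joined is not settled by them. No condition was varied. The comparisons are therefore between genes, between transcripts of a gene and between the libraries, and 2 samples give no two-sided exact p-value under 0.5, so no test is reported.

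Fgf ligands leave the cell, bind heparan sulfate and activate receptor tyrosine kinases (Fgfr) on neighbouring cells, which signal largely through Ras, Raf, Mek and Erk. The same signal induces its own brakes, among them Sprouty and Spred proteins, the Erk phosphatase Dusp6 and the membrane protein Il17rd, and the Ets-family factors Etv1, Etv4 and Etv5 are among its transcriptional targets. In the face, Fgf signals between epithelium and mesenchyme are known for their part in outgrowth of the jaws, palate, teeth and glands and in the ossification of the skull.

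Sequences of the members whose promoters and transcripts the results turn on are shown first. The promoters of Fgf18 and Fgf7, the genes of the 2 most abundant secreted ligands, are given as the 250 bases before the RefSeq transcription start (GRCm38.p6, the build the files call mm10), with the GC box (GGGCGG on either strand) in capitals. The Fgf18 window lies at chr11:33147401-33147650 on the minus strand and the Fgf7 window at chr2:126034408-126034657 on the plus strand.
Fgf18 promoter: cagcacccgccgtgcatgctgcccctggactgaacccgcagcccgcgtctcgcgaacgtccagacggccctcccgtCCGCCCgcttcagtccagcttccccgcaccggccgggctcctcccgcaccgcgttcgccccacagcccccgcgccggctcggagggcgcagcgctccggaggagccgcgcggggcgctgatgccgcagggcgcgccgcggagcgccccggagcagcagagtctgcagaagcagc
Fgf7 promoter: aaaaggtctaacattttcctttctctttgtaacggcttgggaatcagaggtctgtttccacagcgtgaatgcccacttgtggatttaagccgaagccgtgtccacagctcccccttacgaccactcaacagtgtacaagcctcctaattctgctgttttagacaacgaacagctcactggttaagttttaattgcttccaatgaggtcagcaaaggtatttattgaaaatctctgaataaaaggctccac
The Fgf18 window holds 77.2% G and C and 1 GC box, and the Fgf7 window 43.6% and none. The transcripts Fgf18-201 and Fgf7-201 start at or near the ends of these windows.

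Fgf13, on the X chromosome at 59062145 to 59568071 (minus strand), has several annotated starts, and 2 of its promoters are shown because their transcripts took most of its estimated RNA. The window before Fgf13-202 is cut to the 174 bases that hold no annotated exon, chrX:59166165-59166338, and that before Fgf13-201 is the full 250 bases at chrX:59134437-59134686, again with GC boxes in capitals.
Fgf13-202 promoter: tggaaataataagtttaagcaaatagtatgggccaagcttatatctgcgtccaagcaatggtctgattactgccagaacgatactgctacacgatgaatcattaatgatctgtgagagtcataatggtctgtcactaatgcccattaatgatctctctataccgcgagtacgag
Fgf13-201 promoter: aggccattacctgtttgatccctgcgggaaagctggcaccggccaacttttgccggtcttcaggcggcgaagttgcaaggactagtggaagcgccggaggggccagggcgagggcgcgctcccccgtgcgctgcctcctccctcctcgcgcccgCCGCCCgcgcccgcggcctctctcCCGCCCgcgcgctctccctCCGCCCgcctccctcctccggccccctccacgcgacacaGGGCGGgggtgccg
These starts lie 31.7 kb apart. The first window holds 40.2% G and C and no GC box, and the second 74.4% and 4 GC boxes.

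Fgf13-202, Fgf13-201 and Fgf13-203 begin with coding bases of their own, and the rest of their coding sequence, 549 bases, is shared. In the lines that follow, from GENCODE M21 transcripts, capitals mark coding bases found before the shared part, in full for Fgf13-202 and Fgf13-203 and as the last 45 of 186 bases for Fgf13-201.
Fgf13-202: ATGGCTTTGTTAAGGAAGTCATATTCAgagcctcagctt
Fgf13-201: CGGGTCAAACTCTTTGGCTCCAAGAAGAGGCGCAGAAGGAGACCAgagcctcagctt
Fgf13-203: ATGCTTCTAAGGgagcctcagctt
For Fgf14, on chromosome 14, the last 45 such bases are in capitals for each of its 2 transcripts.
Fgf14-202: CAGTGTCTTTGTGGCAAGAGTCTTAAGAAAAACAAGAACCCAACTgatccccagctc
Fgf14-201: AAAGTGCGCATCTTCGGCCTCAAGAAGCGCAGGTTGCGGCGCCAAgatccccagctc
Fgf11 and Spred2, both on chromosome 11, differ instead by a stretch inside the coding sequence that 1 transcript holds and the other lacks, in capitals here with 12 shared bases on each side.
Fgf11-202: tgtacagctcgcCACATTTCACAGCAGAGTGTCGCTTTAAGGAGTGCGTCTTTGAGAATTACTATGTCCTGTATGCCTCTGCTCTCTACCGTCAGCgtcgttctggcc
Spred2-202: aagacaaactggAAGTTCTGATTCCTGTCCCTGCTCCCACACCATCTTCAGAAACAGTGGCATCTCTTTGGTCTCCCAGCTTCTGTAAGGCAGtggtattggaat
The stretch is 84 coding bases long in Fgf11-202 and 81 in Spred2-202, and its edges can shift by the bases that repeat beside it.

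RefSeq promoter windows were found for 27 of the 36 genes, 35 windows in all, and not for Fgf1, Fgf8, Fgf17, Fgf16, Fgf20, Fgf15, Spry4, Etv4 and Flrt1. A GC box was present in 18 of the 35 windows, against 32.7% of 32851 mouse promoter windows of the same length. The TATA motif TATAAA was found in 3 windows, those of Etv1, Fgf21 and Fgfbp3, against 12.4% of all. The Ets motif CCGGAAG (6.91% of all windows) and the cAMP-response motif TGACGTCA (1.55%) had no match in the 35. Both strands were searched. The windows of Dusp6, Spry2, Flrt3, Flrt2 and Fgfbp1, the 5 genes with the highest mean TPM, held no GC box. Etv5, Fgf13 and Spred1, next by mean TPM, each had a window that did. Among low genes, the windows of Fgf21 and Fgf22 held GC boxes and those of Fgf3 and Fgf23 held none.

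The libraries held 37738872 estimated counts in replicate 2 and 30919488 in replicate 1. Of the marker genes, 8 of 8 for facial mesenchyme, 8 of 8 for cartilage and 8 of 8 for basal epithelium reached 1 TPM in both libraries. TPM is a level scaled to transcript length and library size. Of protein-coding genes 63.9% reached it in both. All 8 skeletal muscle, 8 sensory neuron and 6 endothelium markers did so too, and such counts do not by themselves identify the tissue. Some marker lists differed between the libraries. Summed cartilage markers were at 594 TPM in replicate 2 (1034 in replicate 1). Higher in replicate 2 were bone markers at 5070 TPM in replicate 2 (3921 in replicate 1), skeletal muscle markers at 5479 TPM in replicate 2 (3858 in replicate 1), and periderm and cornified-layer markers at 959 TPM in replicate 2 (664 in replicate 1). In that last list 5 of 8 genes were past 2-fold, with a median log2(TPM + 1) difference of 1.34, replicate 2 minus replicate 1, led by Krt13 at 46.05 TPM in replicate 2 (7.73 in replicate 1). Among red blood cell markers the embryonic globin gene Hbb-y was at 282.65 TPM in replicate 2 (1151.89 in replicate 1), a difference of -2.02, while the other 5 were higher in replicate 2. The part of these differences in the values below was not tested, and in bulk RNA fewer cells of a type and less RNA per cell cannot be told apart.

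All 16 feedback regulators and modulators were expressed, whereas 7 of the 16 secreted ligands were, taking 1 TPM or more in both libraries as expressed. The 4 homologous factors also passed, which makes 27 of 36 genes. The background is 34.9% of all annotated genes and 63.9% of protein-coding genes. The median of the mean TPM was 15 for the feedback genes, 1.02 for the secreted ligands and 5.38 for all protein-coding genes. Fgf5, at 1.06 TPM in replicate 2, against 1.31 TPM in replicate 1, lay just above the threshold, and Fgf16, Fgf20 and Fgf3 just under it.

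**Figure D1:**
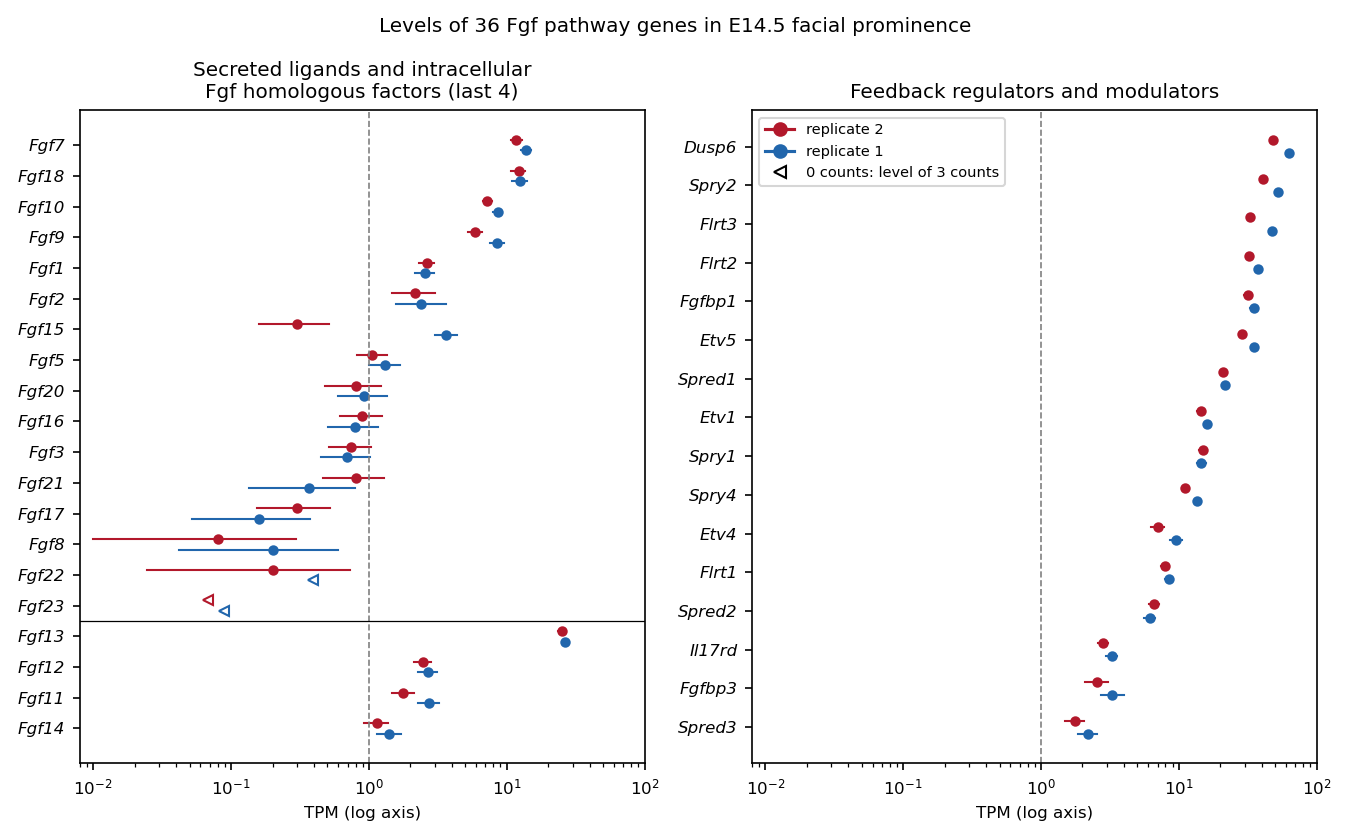
Level of each gene in TPM on a log axis, replicate 2 above replicate 1, with exact 95% counting intervals as lines and the 1 TPM threshold dashed. All 16 feedback genes lie to the right of the threshold in both libraries, 9 of the 16 secreted ligands do not, and of the genes with counts in both libraries Fgf15 has points that lie farthest apart.

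Among secreted ligands, 4 genes made up most of the RNA. Fgf18, whose product acts on forming bone and cartilage, was measured at 12.17 TPM in replicate 2, against 12.42 TPM in replicate 1. Fgf7, a mesenchymal ligand for the epithelial form of Fgfr2, was at 11.76 TPM in replicate 2, against 13.72 TPM in replicate 1. The order of these genes turned between the libraries, with Fgf18 at 1.03 times Fgf7 in replicate 2 and 0.905 times in replicate 1, so neither stands above the other. Fgf10, the close relative of Fgf7 required for limbs, lungs and several glands, was at 7.21 TPM in replicate 2, against 8.61 TPM in replicate 1, below Fgf7 in both libraries. Fgf9, a ligand often made by epithelium that acts on mesenchyme, was at 5.88 TPM in replicate 2, against 8.54 TPM in replicate 1. Fgf10 was above Fgf9 in both libraries, with counting intervals apart in replicate 2 (6.70 to 7.75 TPM for Fgf10, 5.20 to 6.63 for Fgf9) and overlapping in replicate 1. The means were 7.21 ± 1.88 TPM for Fgf9 and 7.91 ± 0.99 TPM for Fgf10 (SD, n = 2). Together these 4 genes held 78.8% of the summed TPM of the 16 secreted ligands in replicate 2 and 76.9% in replicate 1.

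The other expressed ligands were lower. Fgf1, a ligand without a classical signal peptide, was at 2.62 TPM in replicate 2, against 2.55 TPM in replicate 1 (mean 2.58 ± 0.0495 TPM, SD, n = 2). Its counts were less alike, at 259 in replicate 2 and 166 in replicate 1, or 1.28 times after scaling to library totals, because its estimated effective length was 3882 bases in replicate 2 and 3305 in replicate 1. Fgf2, its relative, was at 2.16 TPM in replicate 2, against 2.40 TPM in replicate 1, on 31.3 estimated counts in replicate 2 and 23.7 in replicate 1. That value is uncertain: the deposited gene model includes a transcript that GENCODE M21 assigns to Gm43439, and without it the level is 1.75 TPM in replicate 2, against 1.28 TPM in replicate 1. Fgf2 also shares 640 exonic bases with Nudt6 on the opposite strand (4.75 TPM in replicate 2, 6.56 TPM in replicate 1), and strand handling is not given in the sources used here. Fgf5, known for ending the growth phase of the hair cycle, stood at the bottom of this group on 65 counts in replicate 2 and 62 in replicate 1.

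The other ligands that act locally were under 1 TPM in both libraries, some at the edge of detection. Fgf3, which takes part in tooth and inner ear development, was at 0.74 TPM in replicate 2, against 0.69 TPM in replicate 1. Fgf20, a ligand of the Fgf9 subfamily, was at 0.81 TPM in replicate 2, against 0.92 TPM in replicate 1, and Fgf16 of the same subfamily at 0.89 TPM in replicate 2 (0.79 in replicate 1). These neighbours differed by less than their counting intervals in both libraries. Fgf9 exceeded Fgf20 by 7.26 times in replicate 2 and 9.28 times in replicate 1, so Fgf9 held most of the subfamily's RNA. Fgf17 was at 0.30 TPM in replicate 2 (12 counts) and 0.16 TPM in replicate 1 (5 counts). Fgf8, the ligand of the early facial ectoderm and the close relative of both Fgf17 and Fgf18, had 2 counts in replicate 2 and 3 in replicate 1, so its level, 0.08 TPM in replicate 2, against 0.20 TPM in replicate 1, is at or under the floor of 3 counts. Fgf22, a relative of Fgf7 and Fgf10, had 2 counts in replicate 2 and none in replicate 1, where 3 counts would have been 0.39 TPM. Fgf20 shares 202 exonic bases with Micu3 and Fgf22 shares 82 with Rnf126, each on the opposite strand. Micu3 was at 9.04 TPM in replicate 2 (10.62 in replicate 1) and Rnf126 at 54.22 TPM in replicate 2 (56.77 in replicate 1). Because strand handling is not given, the low levels of Fgf20 and Fgf22 are uncertain.

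The 3 endocrine ligands reach distant organs and use Klotho proteins as co-receptors. Fgf23, the phosphate hormone of bone, had no count in either library, which allows up to 0.0686 TPM in replicate 2 (0.0887 in replicate 1) at the floor of 3 counts. Fgf21, a metabolic hormone of the liver, was at 0.80 TPM in replicate 2, against 0.37 TPM in replicate 1, on 17 counts in replicate 2 and 6 in replicate 1, with overlapping intervals. Their co-receptor genes were low as well: Kl was at 0.31 TPM in replicate 2, against 0.29 TPM in replicate 1, and Klb at 0.43 TPM in replicate 2 (0.15 in replicate 1).

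Of the 28 genes with a mean of 1 TPM or more, Fgf15 differed most between the libraries, and it was lower in replicate 2. It encodes the mouse counterpart of human FGF19, known in adult mice as an intestinal hormone that lowers bile acid synthesis and in embryos for its expression in the developing brain and neural retina. It lies on chromosome 7 at 144896531 to 144900953 (plus strand) and has 1 annotated transcript. Replicate 2 had 12.9 estimated counts (0.30 TPM, counting interval 0.159 to 0.510) and replicate 1 had 122.8 (3.64 TPM, 3.03 to 4.35). The intervals lie far apart. Scaled to library totals, the count of replicate 2 was 0.0859 times that of replicate 1, with an exact 95% counting interval of 0.0448 to 0.154, where the median gene was at 0.954. On the log2(TPM + 1) scale the difference was -1.84, or -1.70 relative to the median gene. The same or a lower ratio was found in 0.356% of the 15715 genes with a mean of 1 TPM or more, where Fgf15 ranked number 56 from the lowest. Fgf15 reached that mean only through replicate 1, so this share and rank describe the difference and give it no added support. Its mean of 1.97 ± 2.36 TPM (SD, n = 2) therefore describes neither library. An antisense gene, Gm26793, shares 761 exonic bases with it but was at 0.02 TPM in replicate 2, against 0.04 TPM in replicate 1.

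Markers of tissues known to express Fgf15 differed between the libraries to different degrees. Of 8 neural retina markers, 3 reached 1 TPM in both libraries and 4 in replicate 1. This list was written after several of its values had been seen. All 8 summed to 11.7 TPM in replicate 2, against 16.1 TPM in replicate 1. Within that list Six6, an eye field factor, had 26.0 counts in replicate 2 and 56 in replicate 1, and Atoh7, the factor of retinal ganglion cells, had none in replicate 2 and 9 in replicate 1. Both were lower in replicate 2. In contrast, Lhx2, also expressed outside the eye, was at 7.91 TPM in replicate 2, against 9.00 TPM in replicate 1, close to the median gene. The 3 retina markers with a mean of 1 TPM or more, Lhx2 among them, lay at -0.18 to -0.03 relative to the median gene. On that log2(TPM + 1) scale Fgf15 lay at -1.7. Of 8 brain markers, 2 reached 1 TPM in both libraries and 4 in replicate 1, and all 8 summed to 10.0 TPM in replicate 2, against 11.5 TPM in replicate 1. Of 6 intestinal markers, none reached it, the defining factors Cdx1, Cdx2 and Hnf4a had no counts in either library, and the sum was 0.27 TPM in replicate 2, against 0.15 TPM in replicate 1. The part of retinal or brain tissue in the Fgf15 difference was not tested.

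**Figure D2:**
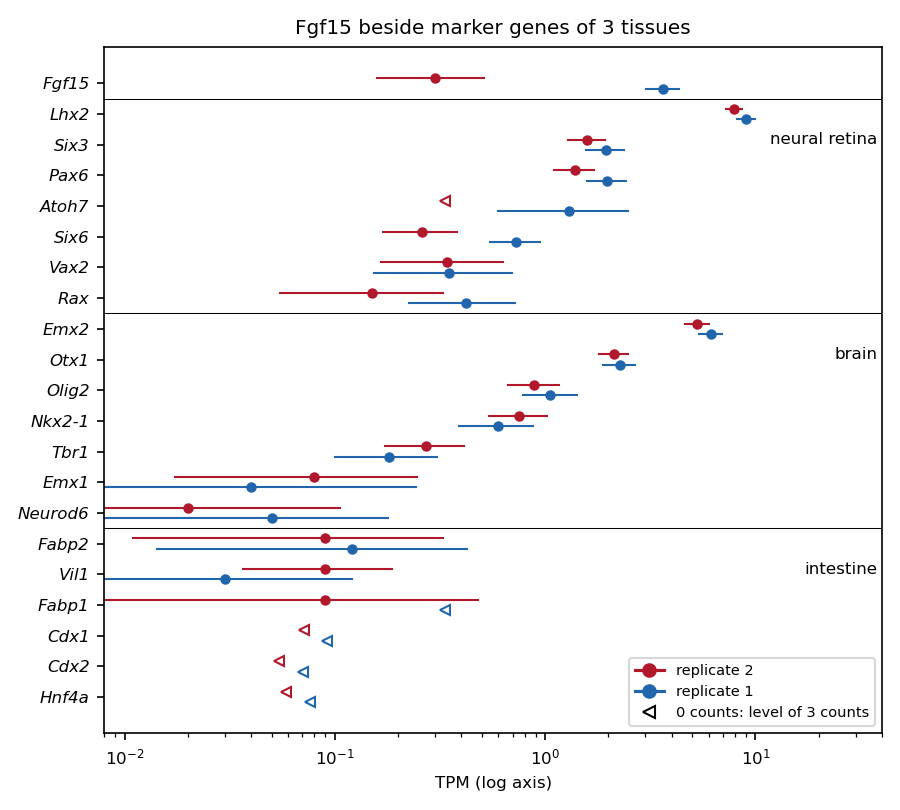
Fgf15 beside 7 of 8 neural retina, 7 of 8 brain and 6 intestinal marker genes, in TPM on a log axis, replicate 2 above replicate 1, with exact 95% counting intervals and arrows at the level of 3 counts where none was seen. Fgf15 and Six6 lie to the left in replicate 2 with intervals apart, while the 7 brain markers shown have intervals that overlap.

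The Fgf homologous factors stay inside the cell, where they bind voltage-gated sodium channels. Fgf13 led them at 25.09 TPM in replicate 2, against 26.64 TPM in replicate 1, above every secreted ligand. It exceeded Fgf12 by 10.2 times in replicate 2 and 9.94 times in replicate 1. Fgf12 was at 2.46 TPM in replicate 2, against 2.68 TPM in replicate 1, Fgf11 at 1.77 TPM in replicate 2 (2.71 in replicate 1), and Fgf14 at 1.14 TPM in replicate 2 (1.41 in replicate 1). The order of Fgf12 and Fgf11 turned between the libraries, and Fgf14 came last in both. The summed TPM of the 4 genes was 0.649 times that of the 16 secreted ligands in replicate 2 and 0.593 times in replicate 1. The 8 sensory neuron markers measured in the same libraries summed to 255 TPM in replicate 2, against 301 TPM in replicate 1. Whether neurons carry the Fgf13 RNA was not tested.

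The feedback genes formed a broad range with Dusp6 at the top. Dusp6, the cytoplasmic phosphatase that removes the activating phosphates from Erk, lies on chromosome 10 at 99263231 to 99267489 (plus strand) and was at 47.99 TPM in replicate 2, against 62.92 TPM in replicate 1, higher than 87.7% of protein-coding genes by its mean. Il17rd, which encodes the membrane inhibitor also called Sef, was far lower at 2.80 TPM in replicate 2, against 3.25 TPM in replicate 1.

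Of the Sprouty genes, which encode inhibitors of receptor signalling upstream of Erk, Spry2 was the highest at 41.08 TPM in replicate 2, against 52.78 TPM in replicate 1. Spry1 was at 15.07 TPM in replicate 2, against 14.57 TPM in replicate 1, and Spry4 at 11.05 TPM in replicate 2 (13.53 in replicate 1). Spry2 exceeded Spry1 by 2.73 times in replicate 2 and 3.62 times in replicate 1, so their order held while its size did not. The related Spred genes, whose products bind neurofibromin and hold back Ras, were led by Spred1 at 20.94 TPM in replicate 2, against 21.55 TPM in replicate 1. Spred2 was at 6.60 TPM in replicate 2, against 6.17 TPM in replicate 1, and Spred3 at 1.76 TPM in replicate 2 (2.18 in replicate 1). Spred1 exceeded Spred2 by 3.17 times in replicate 2 and 3.49 times in replicate 1. Spred3 shares 202 exonic bases with Ggn on the opposite strand, which was at 0.56 TPM in replicate 2, against 0.42 TPM in replicate 1.

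All 3 Etv factors of the Pea3 group were expressed. Etv5 was the highest at 28.53 TPM in replicate 2, against 35.14 TPM in replicate 1, followed by Etv1 at 14.41 TPM in replicate 2 (16.10 in replicate 1) and Etv4 at 7.02 TPM in replicate 2 (9.54 in replicate 1). The order was the same in both libraries, and Etv5 exceeded Etv4 by 4.06 times in replicate 2 and 3.68 times in replicate 1.

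The Flrt genes encode leucine-rich repeat membrane proteins that bind Fgf receptors and also guide cell adhesion. Flrt3 was at 32.66 TPM in replicate 2, against 47.27 TPM in replicate 1, Flrt2 at 32.27 TPM in replicate 2 (37.27 in replicate 1), and Flrt1 at 7.92 TPM in replicate 2 (8.51 in replicate 1). Flrt3 was at 1.01 times Flrt2 in replicate 2 and at 1.27 times in replicate 1. Of the secreted Fgf binding proteins, which release ligands from the matrix, Fgfbp1 was at 31.88 TPM in replicate 2, against 35.19 TPM in replicate 1, and Fgfbp3 at 2.53 TPM in replicate 2 (3.30 in replicate 1). Fgfbp1 exceeded Fgfbp3 by 12.6 times in replicate 2 and 10.7 times in replicate 1.

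Of 54 other pathway genes, 50 were expressed in both libraries, against the 63.9% of protein-coding genes given above. Among receptors and co-receptors, Fgfr1 was highest at 95.81 TPM in replicate 2, against 108.59 TPM in replicate 1, followed by Fgfr2 at 82.12 TPM in replicate 2 (98.12 in replicate 1) and the decoy-like receptor gene Fgfrl1 at 28.81 TPM in replicate 2 (27.98 in replicate 1). Each of the genes Fgfr1 and Fgfr2 thus exceeded the sum of all 16 secreted ligands, 47.0 TPM in replicate 2, against 56.3 TPM in replicate 1. All 20 adaptor and cascade genes were expressed. Among the highest were Map2k2 at 125.01 TPM in replicate 2 (143.58 in replicate 1) and Hras at 107.69 TPM in replicate 2 (98.49 in replicate 1), and the adaptor gene Frs3 was lowest at 3.01 TPM in replicate 2 (3.42 in replicate 1). All 12 heparan sulfate enzyme genes were expressed too. They were led by Sulf2, a sulfatase that edits heparan sulfate outside the cell, at 127.38 TPM in replicate 2, against 155.84 TPM in replicate 1, then Ext2 at 87.22 TPM in replicate 2 (101.96 in replicate 1) and Sulf1 at 57.34 TPM in replicate 2 (71.59 in replicate 1), with Hs6st1 lowest at 8.75 TPM in replicate 2 (8.12 in replicate 1). Of 15 other Erk response genes 13 were expressed, with Ccnd1 at 97.62 TPM in replicate 2, against 111.20 TPM in replicate 1, Myc at 57.19 TPM in replicate 2 (70.85 in replicate 1), Ier2 at 34.91 TPM in replicate 2 (40.70 in replicate 1), and Fosl1 lowest at 0.07 TPM in replicate 2 (0.28 in replicate 1).

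Between the libraries, the median gene with a mean of 1 TPM or more differed by -0.14 on the log2(TPM + 1) scale, replicate 2 minus replicate 1. Differences are given relative to this offset from here on. Of 28 genes with a mean of 1 TPM or more, 25 were lower in replicate 2 before this offset was taken off, where 75.5% of all such genes were. Of the 36 genes, 18 had a mean of 5 TPM or more and none of them differed 2-fold, where 0.714% of 11482 genes did. With the limit at a mean of 1 TPM, Fgf15 was the only one of 28 to do so, where 1.81% of 15715 genes did. The central 95% of those genes lay between -0.46 and 0.74, and Fgf15 was again the only one of the 28 outside it. Fgf15 is among the 28 only through its level in replicate 1. The median difference was -0.03 for the 12 ligands and homologous factors, -0.07 for the 16 feedback genes and -0.04 for the 50 other pathway genes.

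Smaller differences exceeded counting error. The counting interval of the ratio lay wholly below the median gene for 10 of the 28 genes and wholly above it for 3, where 20.9% and 22.3% of all genes did so. Those below were Fgf15, Flrt3, Fgf9, Fgf11, Etv4, Dusp6, Spry2, Etv5, Spry4 and Flrt2, and those above were Fgf1, Spred1 and Spry1. For Fgf1 the library-scaled count ratio was 1.28 (1.05 to 1.56), while its TPM were close to equal. Flrt3 came after Fgf15 with a difference of -0.38 and a ratio of 0.730 (0.696 to 0.766) of library-scaled counts. Fgf9 differed by -0.33 with a ratio of 0.711 (0.602 to 0.840), and Dusp6 by -0.25 with a ratio of 0.808 (0.769 to 0.848). At the other end, Spry1 differed by 0.18 with a ratio of 1.09 (0.984 to 1.20). Of the feedback genes, Dusp6, Spry2, Spry4, Etv4, Etv5, Flrt2 and Flrt3 had intervals below the median gene and Spry1 and Spred1 above it. The interval of Spred1 began at 0.961, close to the median ratio of 0.954. Genes on both sides were also found among all genes, at the shares given above. The sides thus show nothing particular to the feedback genes. These intervals cover counting error only, and with 2 libraries the variation between embryos is unknown.

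**Figure D3:**
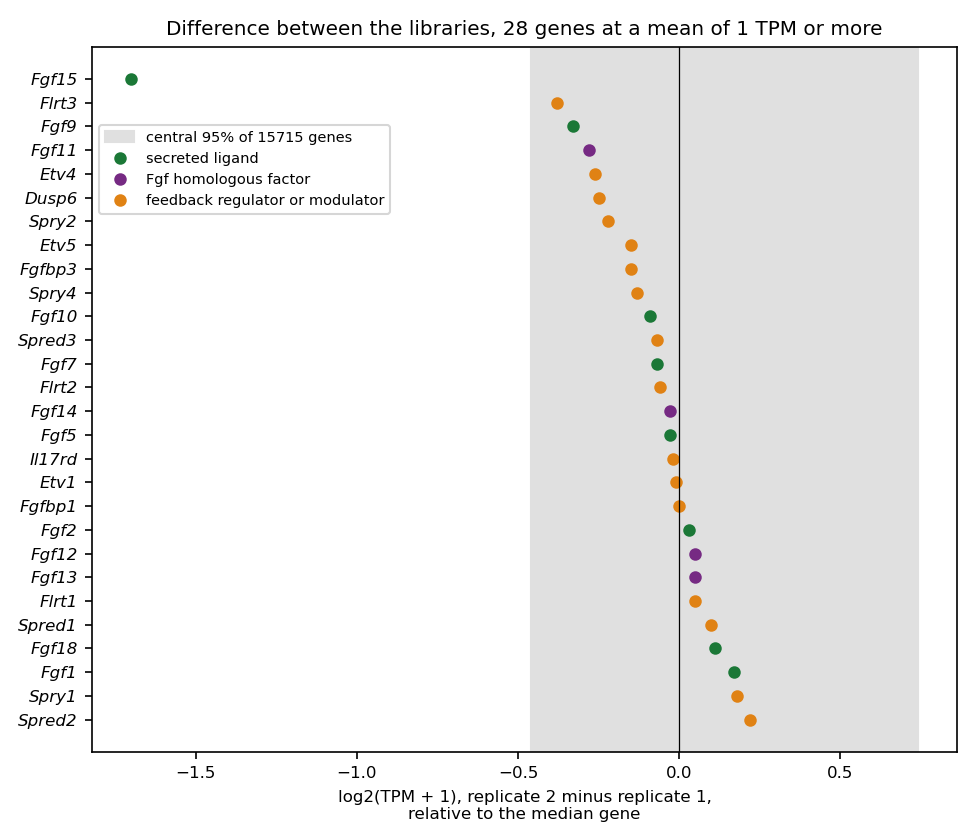
Difference of log2(TPM + 1), replicate 2 minus replicate 1, relative to the median gene, for the 28 genes with a mean of 1 TPM or more, coloured by role; the grey band is the central 95% of 15715 genes. Fgf15 lies at -1.70, outside the band, and the other 27 genes lie inside it, from -0.38 for Flrt3 to 0.22 for Spred2.

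Transcript shares, the percent of a gene's TPM that the authors' estimates give to each transcript, were compared for the 31 genes with a mean of 20 or more estimated counts. Of these, 11 have 1 transcript in the files and 20 have several. The leading transcript was the same in both libraries for 26 genes and differed for Fgf2, Spry1, Spred2, Etv1 and Etv4.

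For Fgf13, the transcript with the 27 coding bases of its own, Fgf13-202, took 61.32% in replicate 2 and 55.18% in replicate 1. Fgf13-201, with 186 such bases and the GC-rich promoter shown above, took 15.79% in replicate 2 and 17.10% in replicate 1. The lead of Fgf13-202 held in both libraries at estimated counts of 781 ± 51.8 in replicate 2 and 577 ± 57.9 in replicate 1 (posterior SD). Fgf13-205, a short transcript of 575 bases, took 15.65% in replicate 2 and 9.70% in replicate 1, on 47.6 counts in replicate 2 and 24.3 in replicate 1. The window that ends near its start was GC-rich too, at 74.8% G and C with 3 GC boxes. Of the 250 bases of that window, 227 are exonic. Fgf13-203 took 2.82% in replicate 2 and 7.85% in replicate 1, on 38.6 ± 44.3 counts in replicate 2 and 88.1 ± 57.5 in replicate 1 (posterior SD), so its share was poorly determined.

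Fgf14 was almost all Fgf14-202, at 93.06% in replicate 2 and 87.32% in replicate 1. Fgf11 was divided between the transcript without the 84-base stretch, Fgf11-201, at 52.44% in replicate 2 and 56.27% in replicate 1, and Fgf11-202 for the rest, a division within the posterior error. Fgf9 had similar shares in both: the full coding transcript Fgf9-201 took 78.07% in replicate 2 and 78.20% in replicate 1, and most of the remainder fell to Fgf9-203, whose annotated coding sequence of 273 bases is the 3′ part of the full 624. Fgf7 gave 35.08% in replicate 2 and 32.47% in replicate 1 to Fgf7-203, annotated as a processed transcript without a coding sequence, so its coding level is lower than the gene level. Spred3 gave 22.69% in replicate 2 and 25.86% in replicate 1 to Spred3-202, a retained-intron transcript. For these genes the libraries gave like shares.

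The remaining genes with several transcripts kept their leader. Fgf10-201 and Etv5-201 took 100% in both libraries. Spred1-201 took 96.44% in replicate 2 and 98.36% in replicate 1, Fgf18-201 100% in replicate 2 and 92.78% in replicate 1, and Fgf1-201 100% in replicate 2 and 83.97% in replicate 1. These were near-complete, except for Fgf1 in replicate 1, where the short Fgf1-205 took the rest on 2.29 counts. By the authors' posterior mean share Fgf1-201 was lower in both libraries, at 67.26% in replicate 2 and 47.42% in replicate 1. Flrt3-202 took 84.91% in replicate 2 and 85.89% in replicate 1, and Flrt2-201 78.94% in replicate 2 and 81.41% in replicate 1, with the same coding sequence in the leading and second transcripts of each gene. Fgf7-201 led Fgf7 with 49.39% in replicate 2 and 50.86% in replicate 1, and Spred3-201 led Spred3 with 77.31% in replicate 2 and 74.14% in replicate 1. On few counts, Fgf3-201 took 77.23% in replicate 2 and 83.29% in replicate 1, and Fgf20-201 took 57.04% in replicate 2 and 100% in replicate 1.

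In Spred2 the coding form with the larger share differed between the libraries. Spred2-201, without the 81-base stretch, took 52.84% in replicate 2 and 27.80% in replicate 1, and Spred2-202, with it, took 45.45% in replicate 2 and 67.99% in replicate 1. The estimated counts of Spred2-201 were 244.6 ± 21.4 in replicate 2 and 93.1 ± 17.5 in replicate 1 (posterior SD). That difference between the libraries exceeds the estimation error. By expected count Spred2-202 was ahead in both libraries, at 332.5 in replicate 2 and 359.6 in replicate 1. The leader in replicate 2 thus depends on the measure. In Etv4, Etv4-202 took 43.24% in replicate 2 and 21.63% in replicate 1, and Etv4-201, which has 18 more coding bases, took 27.35% in replicate 2 and 55.46% in replicate 1. Here the posterior SDs were 39.6 to 55.3 counts on estimates of 92.7 to 239.5, and the choice between these near-identical transcripts is uncertain. Etv1-201 led in replicate 2 with 42.32% against 31.36% in replicate 1, and Etv1-203, which lacks 69 of its coding bases, led in replicate 1 with 34.18%, against 25.38% in replicate 2. By expected count (419 against 210) and by posterior mean share (27.95% against 26.90%) Etv1-201 was ahead of Etv1-203 in replicate 1 too, so that change of leader does not hold. Spry1 changed its leader between Spry1-203 and Spry1-201, which encode the same 939-base coding sequence, and their posterior SDs of 82.6 to 106.7 counts leave that order unsettled. In Fgf2 the leader was Fgf2-201 in replicate 2 and the Gm43439 transcript in replicate 1, on few counts.

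**Figure D4:**
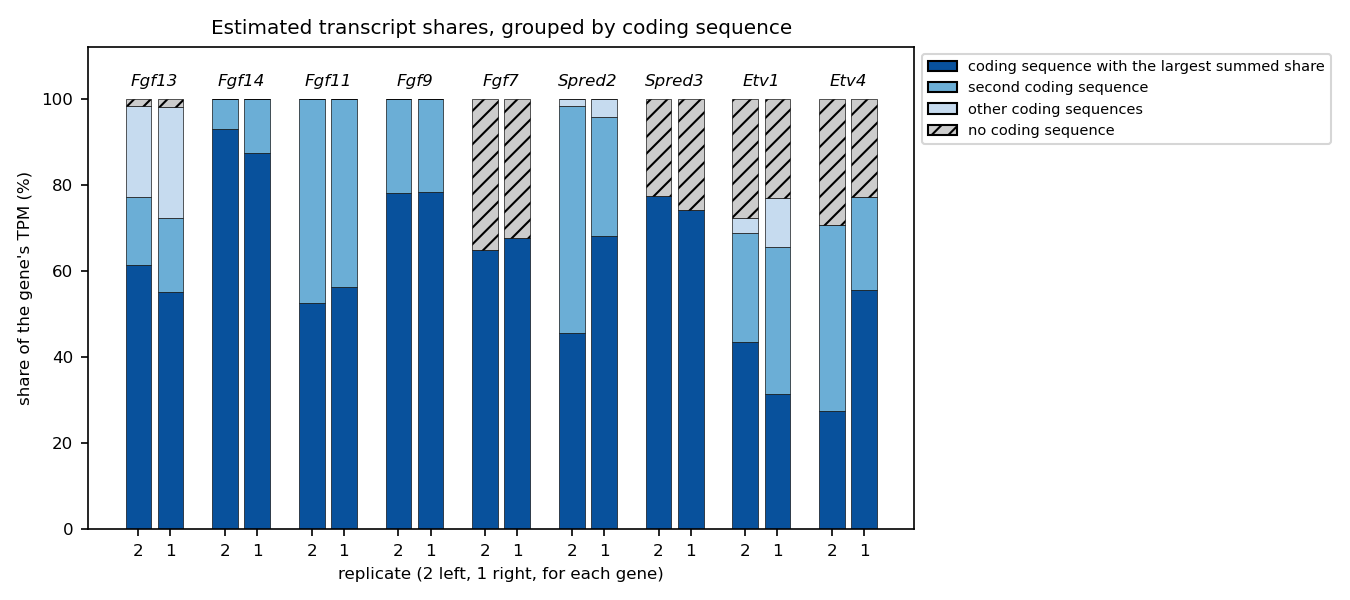
Share of each gene's TPM by coding sequence for 9 genes, replicate 2 left of replicate 1, with transcripts of the same coding sequence joined and those without one hatched. Fgf9, Fgf7 and Spred3 have near-equal bars in the libraries, whereas the 2 main coding sequences of Spred2, of Etv4 and of Etv1 change places in TPM share. By expected count those of Spred2 and Etv1 keep their order, and the order in Etv4 is uncertain.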

How the data were processed

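Gene and transcript tables of both libraries were used. The deposited expected counts estimate reads per gene or transcript without depth scaling. TPM values, made by the authors, divide these by effective length and bring each library to a common total. FPKM values deposited beside them served as an alternative. A transcript share is the percent of the gene level that the authors gave to it, and posterior SDs of counts are the authors' too. The build is mm10 with GENCODE M4, per the companion text. For the aligner, the quantifier and the use of strand, nothing is given in the sources used here.

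Symbols, positions and coding sequences came from GENCODE M21 (42462 of 43346 identifiers matched), promoters from RefSeq. Of 109 transcripts of the 36 genes, 94 have the same length in M21. The posterior SD of the gene count was 0 in both libraries for 31 of 36 genes and at most 6.43 counts otherwise.

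The libraries hold 37738872 (replicate 2) and 30919488 (replicate 1) counts, and 1 count on a gene of 2000 bases is worth 0.0196 TPM in replicate 2 and 0.0254 TPM in replicate 1. Expressed means 1 TPM or more in both libraries. Ratios are replicate 2 over replicate 1 on log2(TPM + 1), which understates changes of low genes, with a mean of 5 TPM for the 2-fold count and 1 TPM for medians. The 95% intervals (Clopper-Pearson and Poisson, both exact, on rounded counts) and the limit of 3 counts used as a floor include counting error alone. Reads carry no molecular identifiers that the sources used here name.

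Every one of the 36 genes is given, in full where its mean reached 1 TPM or it passed 2-fold. Of each pathway list the 3 highest and the lowest are named. Some genes that this rule or the marker lists hold are not reported here. Of genes with several transcripts and a mean of 20 counts, the leaders and those at 20% in both libraries are named, and other transcripts, promoters and marker genes were chosen after their values were seen. The genes and lists were chosen with earlier results of these data known. The retina, intestine and limb lists, the interval counts against the median gene and 1 alternative (both a 1 TPM limit and a pseudocount of 0.1) were added after seeing the data. In the added limb list 1 of 8 genes was expressed, while 4 reached 1 TPM in replicate 1. Of its 2 genes with a mean of 1 TPM or more, 1 was past 2-fold, lower in replicate 2. The ratio and interval code was tested on simulated data. Scaling factors for 2 alternatives came from DESeq2 1.42.0 and edgeR 4.0.16 under R 4.3.3. Everything else ran in Python 3.11.15 with pandas 2.3.3, numpy 2.4.6 and scipy 1.17.1, and figures were drawn with matplotlib 3.10.9.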

Additional observations from a re-analysis of the deposited data

How the results depend on the processing

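The counts of expressed genes, the list medians and the leading transcripts kept within 1.5 times or within the library spread of 0.25 (log2) under the alternatives run. For the list medians that spread is wider than the values themselves, so a median could reach 0 and still count as kept. Expressed genes were 23 of 36 at 2 TPM and 30 at 0.5 TPM, and 27 and 28 in the single libraries (replicate 2 and replicate 1). Ligands and homologous factors gave 11 to 12 and feedback genes 16 with a library left out. The ligand count depended more on the threshold, with 14 at 0.5 TPM, 9 at 1 FPKM and 8 at 2 TPM. Feedback genes gave 16, 16 and 15 in that order. The number past 2-fold went to 1 (Fgf15) with a mean limit of 1 TPM, with no limit, and with the 1 TPM limit and a pseudocount of 0.1, and was 0 otherwise. Not centred on the median gene, the log2 difference of Fgf15 was -1.84, became -3.22 with a pseudocount of 0.1 and -1.47 in FPKM, and was past 2-fold in every scaling run. The uncentred list medians were -0.17 for ligands and homologous factors, -0.20 for feedback genes and -0.17 for other pathway genes. Under edgeR (TMM) and DESeq2 factors, which place the median gene at 0, they were -0.10, -0.09 and -0.03 in that order, against -0.03, -0.07 and -0.04 for TPM centred on the median gene. The sign of the single ratios of Fgf2, Fgf12, Fgf13, Fgf18, Fgfbp1, Flrt1 and Spred1 changed with the scaling, and that of Fgf1 moved from 0.03 to 0.37 under TMM and DESeq2 factors. The leading transcript was shared by 28 of 31 genes when set by expected count, 27 of 31 among coding transcripts, and 20 of 24 at 100 counts.

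No paired analysis was possible because there is 1 group with 1 library for each replicate number. With 2 libraries no test was made, levels under the floor of 3 counts cannot be ordered, and transcript shares rest on the authors' assignment of shared reads.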
